A study of Mus musculus with 5 samples.

Results

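The transcripts described here are those of 33 genes of the NF-kB pathway, its subunits, inhibitors, feedback regulators, kinases, TRAF and cIAP adaptors and a few target genes. They were picked by gene symbol from a deposited table of 27678 genes measured by RNA-seq, and each of the 33 was found there and passed the filter on low values that left 13813 genes to test. The libraries came from dendritic cells of 2 genotypes, 3 libraries of Etv3-/- mice and 2 of Etv3+/+ mice. The comparison asks what these cells lose or gain without Etv3, an ETS-family DNA-binding protein. All cells of either genotype were grown from bone marrow over 6 days in 20 ng/ml of GM-CSF plus 5 ng/ml of IL-4. Up to 60000 per sample were then sorted, at a purity above 95%, for CD11c, intermediate CD11b, high MHC class II and absence of CD115, so the results hold for that gate. The labels give neither the age of the mice nor the part of the locus that was disrupted, nor the origin of the replicates. Should these be repeats of 1 animal or culture, the p-values would rest on technical spread alone.

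NF-kB is a family of transcription factors built as dimers of Rel-homology subunits. In the canonical route, receptors such as those for TNF and IL-1 act through TRAF and cIAP ubiquitin ligases on a kinase complex of Chuk, Ikbkb and Ikbkg, which marks the IkB inhibitors for destruction and frees the dimers to enter the nucleus. In the non-canonical route, the kinase encoded by Map3k14 drives processing of the Nfkb2 precursor to a partner of Relb, and in dendritic cells both routes are known for their part in maturation and in costimulation. Several inhibitors and deubiquitinases are themselves NF-kB targets and close feedback loops.

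The libraries held 42983550 to 59694413 reads in Etv3-/- and 56445754 and 68253936 in Etv3+/+. Transcripts of the sort markers were present throughout, with Itgax (CD11c) at 10505 to 16076 normalized counts in Etv3-/- and 9808 and 10549 in Etv3+/+, which overlap. Of the 7 dendritic cell and gate markers 0 were called and 5 were higher without overlap (71.4%, against 16.7% of all tested genes). These included Itgam (CD11b), at 1637 to 1855 in Etv3-/- and 709 and 726 in Etv3+/+, and the MHC class II genes H2-Ab1 and H2-Aa, whose means in Etv3-/- were 2.91-fold and 2.37-fold those in Etv3+/+. The list summed to 3.63% to 4.93% of normalized counts in Etv3-/- and to 1.43% and 2.30% in Etv3+/+, and the part of this difference in the results was not tested. Csf1r, which encodes CD115, was nevertheless detected, at 2403 to 3493 normalized counts in Etv3-/- and 1018 and 1348 in Etv3+/+. In RNA of sorted pools, fewer cells of a type and less RNA per cell cannot be told apart. Of the lists of other cell types, neutrophil markers (0 of 11 called) summed to 15086 to 73995 in Etv3-/- and 50975 and 55637 in Etv3+/+. Mast cell and basophil markers (0 of 9 called, Mcpt4 at 0) summed to 12110 to 18246 in Etv3-/- and 11359 and 19792 in Etv3+/+. Among 6 tested plasmacytoid markers 1, Ccr9, was called higher (16.7%, against 0.876% of all tested genes). It had 99.1 to 199 normalized counts in Etv3-/- and 0 in both Etv3+/+ libraries. The list of 7, with Siglech at 0, summed to 97827 to 107927 in Etv3-/- and 108341 and 136949 in Etv3+/+. Irf8 made up most of this sum, with 82795 to 88595 in Etv3-/- and 94969 and 124608 in Etv3+/+. Of 6 tested plasmacytoid markers 3 were higher without overlap (50%, against 16.7% of all tested genes). Irf8 alone was lower without overlap (16.7%, against 19.3%). Etv3 itself had 18691, 20416 and 22856 normalized counts in Etv3-/- and 23050 and 25447 in Etv3+/+ (limma adjusted p = 0.567), so a gene-level count does not check the genotypes, which are used as labelled.

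A pair of libraries stood apart in base composition. Across tested genes, the Spearman correlation of a library's deviation from the gene mean with transcript GC content reached 0.41 in the third Etv3-/- library and -0.42 in Etv3+/+ replicate 2, against -0.10 to 0.09 in the other 3 libraries. Mitochondrial transcripts made up 5.84% of the normalized counts of Etv3+/+ replicate 2 and 0.985% to 2.89% of the others. Fold changes after a correction for GC content and length are therefore given beside those that it moved.

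Transcripts of Tnfaip2, a TNF-induced gene, and of Ikbke, an IKK-related kinase, rose in Etv3-/- cells, by 3.03-fold and 2.50-fold over the Etv3+/+ mean, and no other member passed the main test. Of 33 members 2 (6.06%) were called higher, where 0.876% of all tested genes were (limma, adjusted p under 0.05). No member was called lower by limma, where 0.319% of all tested genes were. At an unadjusted p under 0.05, limma found 4 members higher (8.02% of all tested genes were) and 3 lower (9.93% were). After adjustment, edgeR called 2 members higher and 0 lower, against 0.825% and 0.319% of all tested genes. DESeq2 called 4 higher and 2 lower, Rel and Traf6, against 4.6% and 3.86%. With a correction for GC content and length, limma called 3 higher, Tnfaip3 being added, and 0 lower, against 1.72% and 0.801%, and Tnfaip3 was lost again when the replicate block was added to that correction. With the replicate number as a block it called 2 and 0, against 1.09% and 0.854%. The share of members at an unadjusted p under 0.05 was 21.2%, close to the 18.0% of all tested genes. The median log2 fold change was -0.07 over the members and -0.06 over all tested genes, and the median absolute value 0.30 and 0.48. Values were without overlap between genotypes for 16 members (48.5%, against 36.0% of all tested genes), of which 10 were higher in Etv3-/- (30.3%, against 16.7%) and 6 lower (18.2%, against 19.3%).

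**Figure D1:**
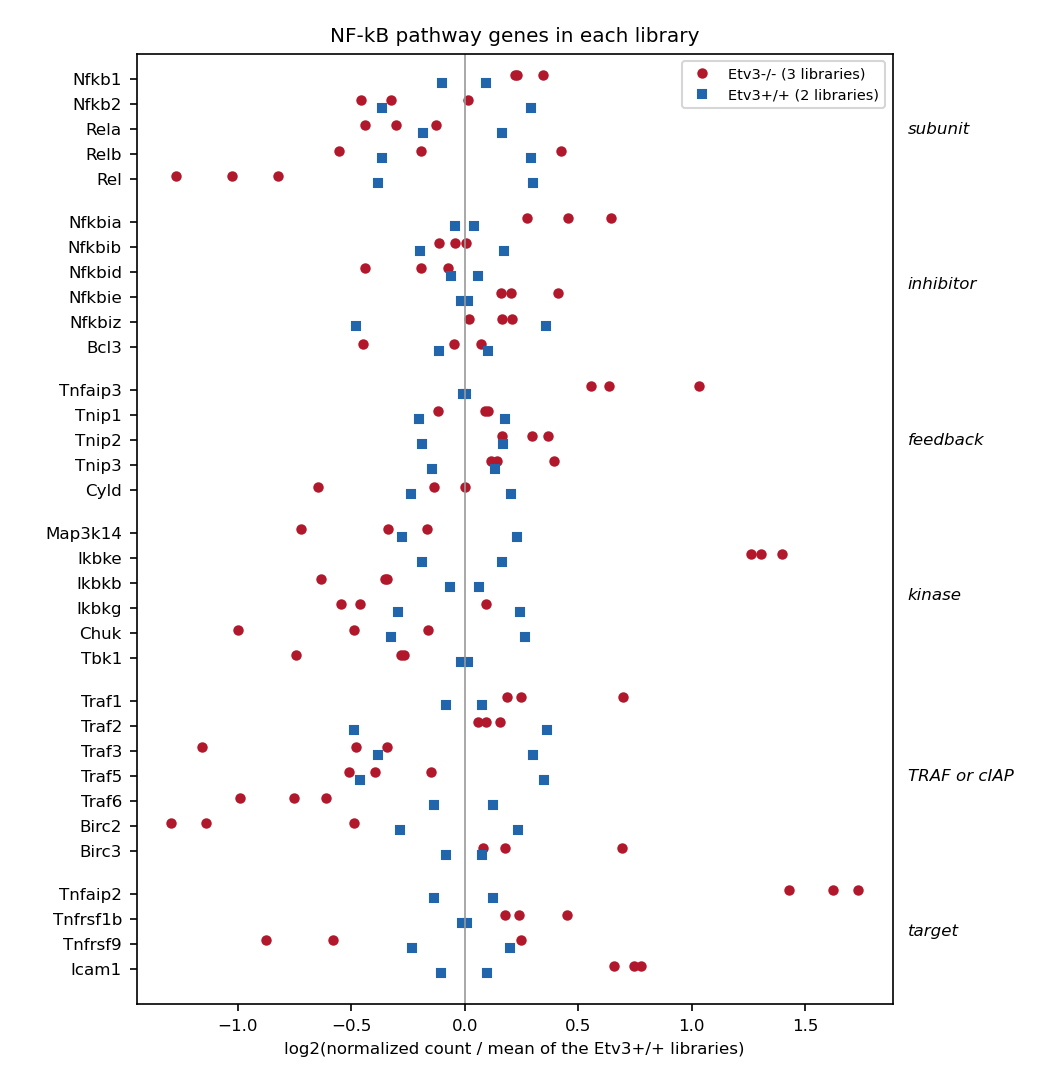
Normalized count of each of the 33 genes in each library, on a log2 scale relative to the mean of the Etv3+/+ libraries, grouped by role. Circles are the 3 Etv3-/- libraries and squares the 2 Etv3+/+ libraries; Ikbke and Tnfaip2 stand farthest to the right, and Rel, Birc2 and Traf6 lie to the left.

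Tnfaip2 encodes a cytoplasmic protein that TNF induces and that takes part in the formation of membrane nanotubes between cells. The gene (ENSMUSG00000021281.15, chromosome 12, 111442469 to 111455018, plus strand, GRCm38) had 23409, 26726 and 28897 normalized counts in Etv3-/-, against 9483 and 7909 in Etv3+/+. Every Etv3-/- value was more than the sum of both Etv3+/+ values. On the log2 scale the difference was 1.60 with a 95% interval of 1.13 to 2.07 (limma adjusted p = 0.0195), and edgeR gave 1.66 (adjusted p = 0.0304).

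Ikbke encodes IKK-epsilon, a kinase that with its relative TBK1 acts on interferon regulatory factors and on NF-kB subunits. The gene (ENSMUSG00000042349.13, chromosome 1, 131254343 to 131279606, minus strand) had 4465, 4337 and 4772 normalized counts in Etv3-/-, against 2029 and 1589 in Etv3+/+. The Etv3-/- values lay close together, with a coefficient of variation of 4.94%. On the log2 scale the difference was 1.33 with a 95% interval of 0.83 to 1.83 (limma adjusted p = 0.0365), and edgeR gave 1.39 (adjusted p = 0.0427).

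Both calls were sensitive to which libraries were kept. With any single library left out, limma called no member, although 4 members were higher at an unadjusted p under 0.05 in each case. The log2 fold change then was 1.47 to 1.73 for Tnfaip2 (adjusted p = 0.0521 to 0.0993) and 1.16 to 1.51 for Ikbke (adjusted p = 0.0755 to 0.157). After the GC and length correction it was 1.52 for Tnfaip2 (limma adjusted p = 0.00397) and 1.39 for Ikbke (limma adjusted p = 0.0144), both inside the uncorrected intervals. Of 13 tested macrophage and monocyte markers 3, C1qa, C1qb and C1qc, were also called higher in Etv3-/- (23.1%, against 0.876% of all tested genes). Values of 9 of the 13 were higher without overlap (69.2%, against 16.7%) and 0 were lower without overlap. The list of 15, with Marco and Vsig4 at 0 in all 5 libraries, summed to 57144 to 75211 normalized counts in Etv3-/-. Its sums in Etv3+/+ were 34166 and 34618. B cell markers (0 of 11 called) summed to 4830 to 7942 in Etv3-/- and 2314 and 2870 in Etv3+/+. Of these 11 markers, 7 were higher without overlap (63.6%, against 16.7% of all tested genes) and 0 lower. The part of such cells in these results, and in those for Tnfaip3 and Icam1, was not tested. Antisense genes share 6.30% of the exon bases of Tnfaip2, and 1.76% and 0.721% of those of Ikbke.

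**Figure D2:**
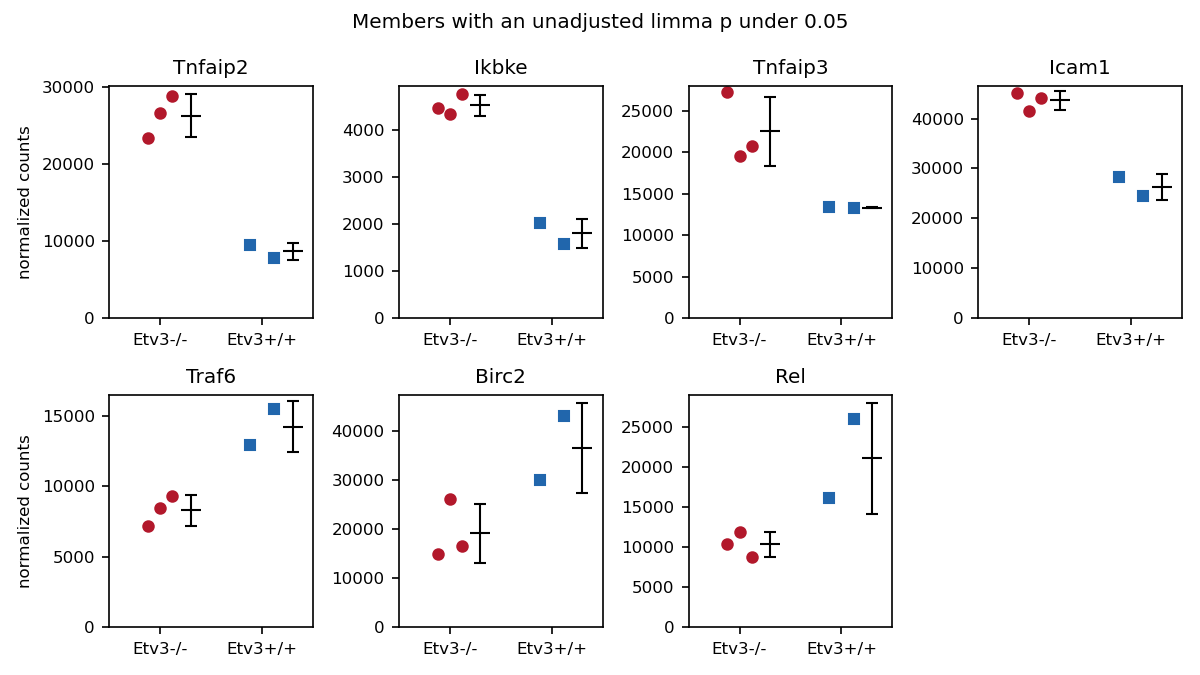
Normalized counts of the 7 members with an unadjusted limma p under 0.05, with a point per library and the mean ± SD beside each group. The Etv3-/- values lie above the Etv3+/+ values for Tnfaip2, Ikbke, Tnfaip3 and Icam1 and below them for Traf6, Birc2 and Rel.

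The sequences before the starts of the called genes, Tnfaip2 and Ikbke, are shown because NF-kB binds promoters at kB sites, with that of Rel, the subunit gene with the largest difference, for comparison. Each run holds the 250 bases before the RefSeq start on the gene's strand (GRCm38.p6), with matches to the kB consensus, searched by that name on both strands, in capitals.
Tnfaip2 (chr12:111442411-111442660, plus strand): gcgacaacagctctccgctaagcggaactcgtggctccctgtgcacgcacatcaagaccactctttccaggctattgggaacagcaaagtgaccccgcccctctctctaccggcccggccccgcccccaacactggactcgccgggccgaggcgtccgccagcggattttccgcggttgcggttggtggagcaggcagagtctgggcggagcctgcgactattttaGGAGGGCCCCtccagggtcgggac
Ikbke (chr1:131279564-131279813, minus strand): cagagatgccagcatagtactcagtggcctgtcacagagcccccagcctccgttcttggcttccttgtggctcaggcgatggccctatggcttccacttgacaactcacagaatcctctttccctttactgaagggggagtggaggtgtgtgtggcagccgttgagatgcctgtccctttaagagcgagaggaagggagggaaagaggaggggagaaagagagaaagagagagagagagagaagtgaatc
Rel (chr11:23770970-23771219, minus strand): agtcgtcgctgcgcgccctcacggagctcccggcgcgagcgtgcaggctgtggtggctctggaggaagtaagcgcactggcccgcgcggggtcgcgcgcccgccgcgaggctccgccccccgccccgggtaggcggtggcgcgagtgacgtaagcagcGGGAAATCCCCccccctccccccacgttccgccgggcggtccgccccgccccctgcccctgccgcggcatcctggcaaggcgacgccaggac
Tnfaip2 held 1 match, 24 to 15 bases before the RefSeq start, on the minus strand, and Rel held overlapping matches from 92 to 82 bases before its own. Ikbke held none, which says only that the consensus was not matched in this window. The RefSeq starts of Tnfaip2 and Ikbke differ from those of the GENCODE positions given above. Part of each of these windows, with the Tnfaip2 match, therefore lies inside the gene as GENCODE places it. RefSeq windows were at hand for 29 of the 33 members, not for Nfkb1, Relb, Nfkbiz and Ikbkb. A kB match stood in at least 1 window of 12 of these 29 genes (41.4%), against 8.23% of 27025 genes, and in 35.9% of 39 member windows, against 7.25% of 32851 windows. The members were picked as pathway genes, feedback genes and targets of NF-kB among them, so these shares are not independent of that choice. The genes with a match were Cyld, Nfkb2, Nfkbia, Nfkbid, Nfkbie, Rel, Tnfaip2, Tnfaip3, Tnfrsf9, Tnip1, Tnip3 and Traf3, of which limma called Tnfaip2 and DESeq2 called Tnfaip2, Tnfaip3 and Rel. The ETS-type motif CCGGAAG, searched on both strands, stood in a window of 4 members, Birc2, Ikbkg, Nfkbie and Tnfrsf1b (13.8%, against 7.83% of genes), and in none of Tnfaip2, Ikbke and Rel.

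Among the subunits, transcripts for Rel, the c-Rel subunit typical of blood cells, were at 49.1% of their Etv3+/+ mean in Etv3-/- cells without passing the threshold. Rel (chromosome 11, 23736847 to 23770970, minus strand) had 10353, 11895 and 8722 normalized counts in Etv3-/-, against 16150 and 25940 in Etv3+/+. The groups did not overlap, and the 2 Etv3+/+ libraries were far apart. The log2 difference was -1.0 (limma adjusted p = 0.121, with a 95% interval of -1.60 to -0.39). DESeq2 called it (-1.0, adjusted p = 0.0114) and edgeR did not (-0.97, adjusted p = 0.133). After the GC and length correction the log2 fold change was -0.54 (limma adjusted p = 0.109), and without Etv3+/+ replicate 2 it was -0.66 (limma adjusted p = 0.367). The summed level of T and NK cell markers (0 of 12 called, Ncr1 at 0) was 3003 to 7569 normalized counts in Etv3-/-, against 11410 and 12338 in Etv3+/+. Of the 11 of these markers that were tested, 7 were lower without overlap (63.6%, against 19.3% of all tested genes). They were Cd3d, Cd3g, Cd8b1, Nkg7, Gzma, Gzmb and Klrb1c. Cd3e, Cd8a, Trac and Cd4 overlapped between genotypes, with Cd4 at 0 in both Etv3+/+ libraries. The part of such cells in this result, and in those for Traf6 and Birc2, was not tested.

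Nfkb1, the precursor gene of the canonical DNA-binding partner, had 10052, 9302 and 9249 normalized counts in Etv3-/-, against 7383 and 8459 in Etv3+/+. Its groups did not overlap either, in the other direction, with a log2 fold change of 0.27 (95% interval -0.17 to 0.71, limma adjusted p = 0.484), or 0.52 after the GC and length correction (limma adjusted p = 0.146). Rela, the canonical transactivating subunit, had 13265, 14579 and 16452 in Etv3-/-, against 20112 and 15813 in Etv3+/+. Those values overlapped, with a log2 fold change of -0.28 (95% interval -0.77 to 0.21), or -0.38 after that correction.

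The non-canonical pair was widely spread among replicates of both genotypes. Nfkb2 had 24185, 26527 and 33475 normalized counts in Etv3-/-, against 40579 and 25754 in Etv3+/+, and Relb had 22126, 28435 and 43580 in Etv3-/-, against 39709 and 25236 in Etv3+/+. Their coefficients of variation were 17.2% and 35.1% in Etv3-/- and 31.6% and 31.5% in Etv3+/+, with Nfkb2 first in each pair. Log2 fold changes were -0.22 (95% interval -0.84 to 0.40) for Nfkb2 and -0.07 (95% interval -0.84 to 0.70) for Relb, and -0.26 and -0.18 after the GC and length correction. Genes on the opposite strand share 11.6% and 6.52% of the Nfkb2 exon bases. Transcripts of Nfkb2, Rela and Relb have 56.8% to 59.4% GC and were each highest in Etv3-/- replicate 3 within their genotype and lowest in Etv3+/+ replicate 2 within theirs. Rel, with 42.5% GC, showed the reverse order in those libraries.

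In levels per length, normalized counts per kilobase of exon, Relb, Nfkb2 and Rela were the most abundant subunit transcripts, at 8077, 6122 and 4806 in Etv3-/- and 8358, 7235 and 5847 in Etv3+/+. These 3 levels overlapped between neighbours within each genotype. Rel followed at 1383 in Etv3-/- and 2819 in Etv3+/+, and Nfkb1 was lowest at 790.5 in Etv3-/- and 656.8 in Etv3+/+. Per kilobase the Rel libraries lay above all Nfkb1 libraries of the same genotype, while their undivided normalized counts overlapped in Etv3-/-. The length is that of all annotated exons of a gene joined, 12061 bases for Nfkb1 and 7466 for Rel. It can exceed that of the transcript expressed, and these ranks depend on it.

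**Figure D3:**
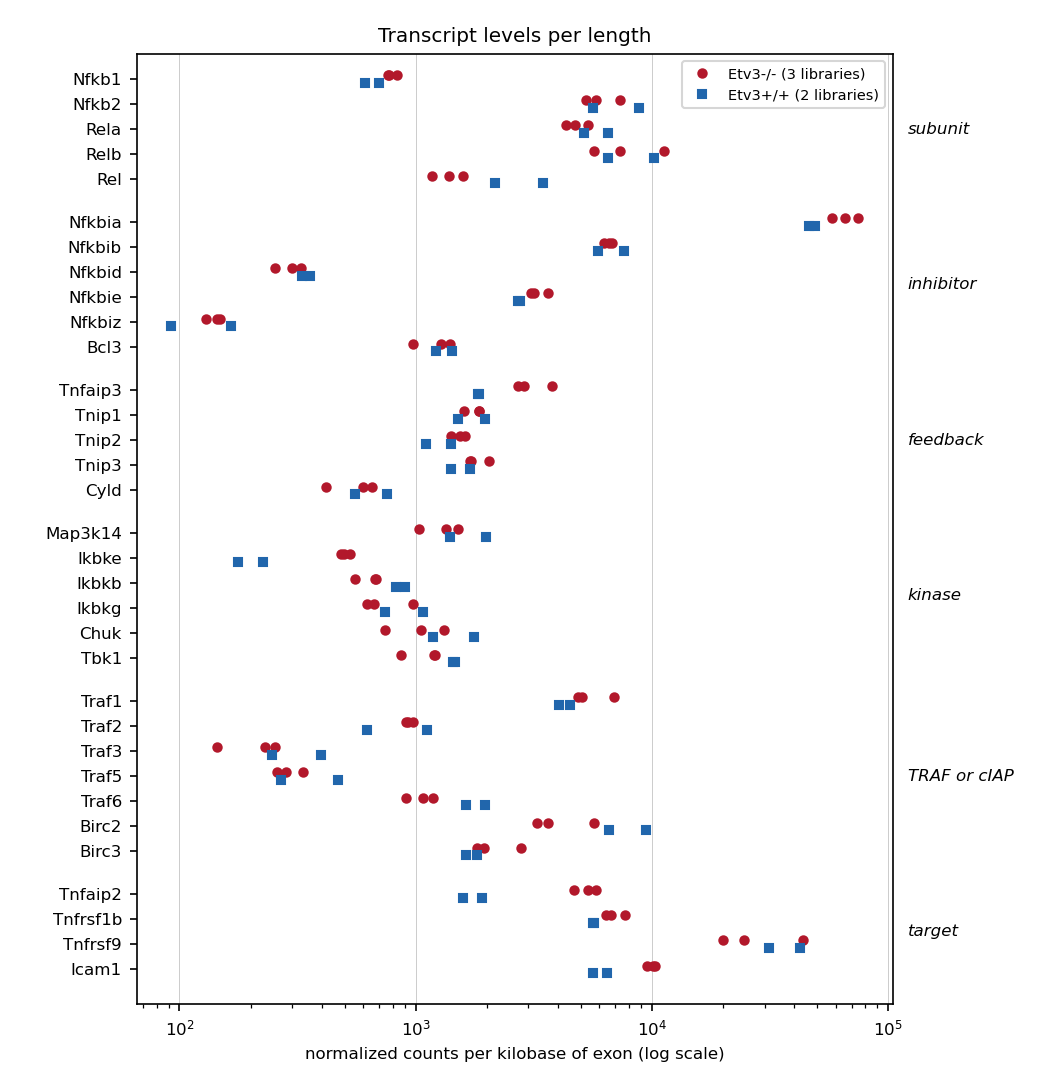
Normalized counts per kilobase of exon for each of the 33 genes on a log scale, by role, with circles for the 3 Etv3-/- libraries and squares for the 2 Etv3+/+ libraries. Nfkbia and Tnfrsf9 stand above the other genes in both genotypes, and Nfkbiz is among the lowest.

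Rel and Nfkb1, which differ in sign and have near GC contents of 42.5% and 44.9%, were also set against each other within each library, as were the relatives Ikbke and Tbk1 and the neighbouring genes Birc3 and Birc2. These 3 pairs were chosen after their values had been seen, and neither the lack of overlap nor the p-values below account for that choice. The ratio of Rel to Nfkb1 normalized counts was 1.03, 1.28 and 0.943 in Etv3-/-, against 2.19 and 3.07 in Etv3+/+. Ikbke to Tbk1 stood at 0.945, 0.928 and 1.41 in Etv3-/-, against 0.361 and 0.277 in Etv3+/+. For Birc3 to Birc2 the ratios were 0.613, 0.375 and 0.842 in Etv3-/-, against 0.272 and 0.212 in Etv3+/+. In each pair the genotypes did not overlap. The differences in log2 ratio, Etv3-/- minus Etv3+/+, were -1.27, 1.76 and 1.27 in that order, and -1.05, 1.62 and 1.01 after the GC and length correction. Exact permutation of the libraries, two-sided, gave p = 0.1, 0.1 and 0.2 in that order, where 0.1 is the smallest that 10 splits allow (0.15, 0.15 and 0.2 with Benjamini-Hochberg adjustment over the 3 pairs).

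**Figure D4:**
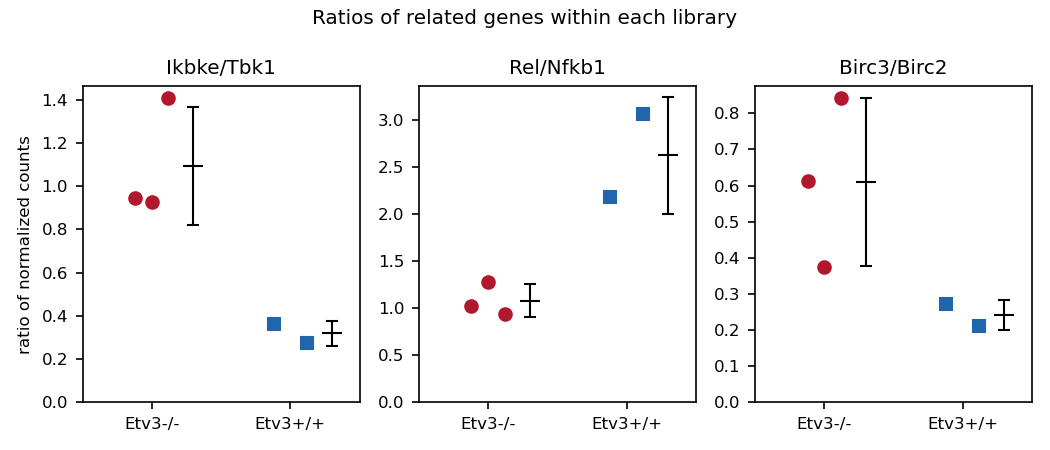
Ratio of normalized counts of related genes within each library, for Ikbke over Tbk1, Rel over Nfkb1 and Birc3 over Birc2, with the mean ± SD beside each group. The Etv3-/- points lie above the Etv3+/+ points in the first and last panel and below them in the middle one.

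The 6 inhibitors had log2 fold changes from -0.23 to 0.46, with limma adjusted p from 0.364 to 0.945. limma called 0 of the 6, with 0 at an unadjusted p under 0.05, and edgeR and DESeq2 called 0 with 1 each at that p. Nfkbia, which encodes IkB-alpha, the rapidly resynthesised feedback inhibitor, was the most abundant member per kilobase in both genotypes. It had 105302, 93162 and 120222 normalized counts in Etv3-/-, against 79171 and 74675 in Etv3+/+. Those groups did not overlap, with a log2 fold change of 0.46 (95% interval -0.09 to 1.01, limma adjusted p = 0.364), or 0.23 after the GC and length correction. Nfkbie, the IkB-epsilon gene, averaged 10025 ± 943 (SD, n = 3) in Etv3-/- and 8355 ± 125 (SD, n = 2) in Etv3+/+ without overlap, with a log2 fold change of 0.26, or 0.10 after that correction. Nfkbib, the IkB-beta gene, averaged 14169 ± 590 in Etv3-/- and 14655 ± 2622 in Etv3+/+ (log2 fold change -0.04, or -0.17 corrected), with SD over the same numbers of libraries here and below. A gene on the opposite strand shares 14.5% of the Nfkbib exon bases.

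The nuclear IkB proteins act as cofactors of bound NF-kB dimers, and per kilobase their transcripts were scarcer, with 141 to 1214 normalized counts in Etv3-/- and 128 to 1324 in Etv3+/+, than those of Nfkbia, Nfkbib and Nfkbie, with 3292 to 65981 in Etv3-/- and 2744 to 47778 in Etv3+/+. Bcl3 averaged 3005 ± 538 normalized counts in Etv3-/- and 3276 ± 348 in Etv3+/+. Nfkbid averaged 687 ± 86.6 in Etv3-/- and 804 ± 46.6 in Etv3+/+, and Nfkbiz 706 ± 47.6 in Etv3-/- and 644 ± 258 in Etv3+/+. Log2 fold changes were -0.14, -0.23 and 0.19 for these 3 genes, each with an interval that spans 0, and -0.19, -0.40 and 0.18 after the correction.

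Among feedback genes, Tnfaip3, which encodes the ubiquitin-editing enzyme A20, had 27309, 19625 and 20745 normalized counts in Etv3-/-, against 13385 and 13289 in Etv3+/+. The Etv3+/+ values were nearly equal and every Etv3-/- value lay above them. The log2 fold change was 0.74 (95% interval 0.24 to 1.25), which missed limma's threshold (adjusted p = 0.148). It reached 0.96 and the threshold after the GC and length correction (limma adjusted p = 0.0488) but missed it with the replicate block added to that correction (0.96, limma adjusted p = 0.0655). DESeq2 called it (0.79, adjusted p = 0.0148), while edgeR did not (0.82, adjusted p = 0.146).

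The A20-binding partners Tnip1, Tnip2 and Tnip3 had overlapping values in the genotypes. Tnip3 averaged 19850 ± 2170 normalized counts in Etv3-/- and 17002 ± 2295 in Etv3+/+, with a log2 fold change of 0.22 that became 0.99 after the GC and length correction (limma adjusted p = 0.134). Its transcript has 36.7% GC, the lowest of the members. Tnip2 averaged 4097 ± 289 in Etv3-/- and 3380 ± 587 in Etv3+/+, and Tnip1 6256 ± 528 in Etv3-/- and 6135 ± 1129 in Etv3+/+. Their log2 fold changes of 0.29 for Tnip2 and 0.04 for Tnip1 became 0.08 and -0.08 after that correction. Cyld, a deubiquitinase gene, averaged 7001 ± 1548 in Etv3-/- and 8237 ± 1774 in Etv3+/+, and its log2 fold change of -0.24 became 0.19 after that correction.

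Ikbke stood alone among the kinases: the other 5 had log2 fold changes between -0.52 and -0.28, and none of these passed in limma, edgeR or DESeq2. After the GC and length correction the 5 no longer had 1 sign, with -0.46 for Ikbkb, -0.44 for Map3k14, -0.23 for Tbk1, -0.02 for Chuk and 0.07 for Ikbkg. Tbk1, its closest relative here, averaged 4264 ± 753 normalized counts in Etv3-/- and 5678 ± 82.1 in Etv3+/+, with no overlap (log2 fold change -0.43, 95% interval -0.95 to 0.09). Ikbkb, the canonical catalytic subunit, had 10598, 12969 and 12890 in Etv3-/-, against 17152 and 15696 in Etv3+/+. Its groups did not overlap (log2 fold change -0.44, 95% interval -0.90 to 0.02, limma adjusted p = 0.298). Chuk, the other catalytic subunit, averaged 5276 ± 1477 in Etv3-/- and 7514 ± 2135 in Etv3+/+, with a log2 fold change of -0.52. Ikbkg, the regulatory subunit also called NEMO, averaged 6110 ± 1544 in Etv3-/- and 7391 ± 1921 in Etv3+/+. Map3k14, the kinase of the non-canonical route, averaged 8483 ± 1596 in Etv3-/- and 11116 ± 2732 in Etv3+/+.

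Per length, Ikbke was the scarcest kinase transcript in both genotypes, at 495, 481 and 529 normalized counts per kilobase in Etv3-/- and 225 and 176 in Etv3+/+. The range of the 6 kinases by group mean was 502 to 1295 in Etv3-/- and 201 to 1697 in Etv3+/+. The rank depends on the length of all annotated exons joined, 9018 bases for Ikbke and 3910 for Tbk1. In undivided normalized counts Ikbke averaged 4525 and Tbk1 4264 in Etv3-/-, against 1809 and 5678 in Etv3+/+.

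**Figure D5:**
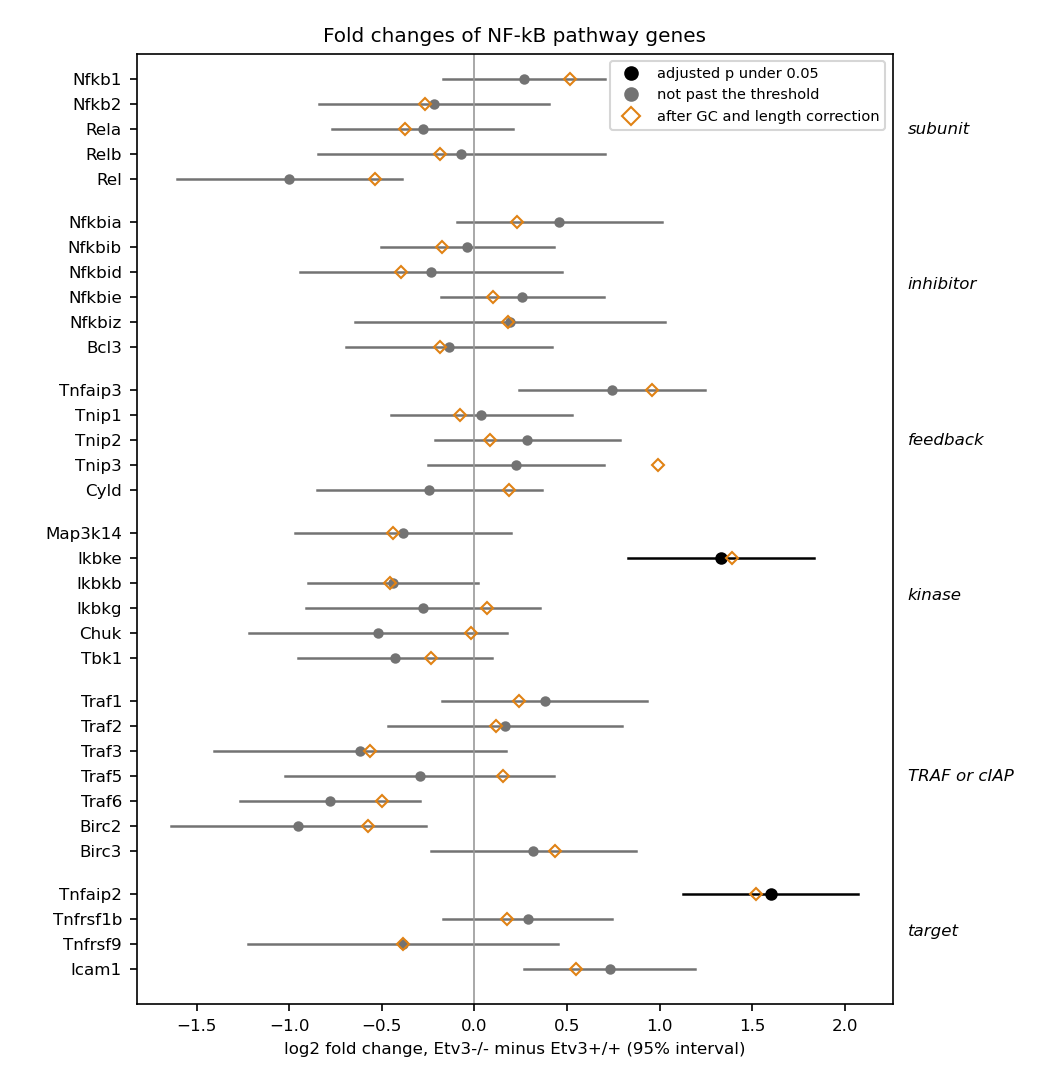
Log2 fold change of each gene, Etv3-/- minus Etv3+/+, with its 95% interval, by role; black marks an adjusted p under 0.05 and diamonds the value after the GC and length correction. Tnfaip2 at 1.60 and Ikbke at 1.33 are the only black points. Diamonds away from their circles include those of Rel, Birc2, Traf6, Chuk and Tnip3, and those of Traf5, Cyld and Ikbkg, which lie across 0.

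TRAF and cIAP genes were split by member. Traf6, the ubiquitin ligase that relays signals of IL-1 and Toll-like receptors, had 7148, 8451 and 9300 normalized counts in Etv3-/-, against 12933 and 15488 in Etv3+/+. All Etv3-/- values lay below both Etv3+/+ values, with a log2 fold change of -0.78 (95% interval -1.26 to -0.29, limma adjusted p = 0.122), -0.50 after the GC and length correction, and a DESeq2 call (-0.75, adjusted p = 0.0201). Birc2, the cIAP1 gene, had 14910, 26075 and 16592 in Etv3-/-, against 30049 and 43049 in Etv3+/+. Its groups did not overlap and were wide (log2 fold change -0.95, 95% interval -1.64 to -0.26, limma adjusted p = 0.168), and the value was -0.58 after the correction. Transcripts of both genes are low in GC, at 45.7% for Traf6 and 43.1% for Birc2.

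Birc3, the cIAP2 gene next to Birc2 on chromosome 9, averaged 10959 ± 2621 normalized counts in Etv3-/- and 8641 ± 672 in Etv3+/+, without overlap (log2 fold change 0.32, 95% interval -0.23 to 0.87, or 0.44 corrected for GC and length). Traf1, an NF-kB-induced adaptor without a ubiquitin ligase domain, had 42788, 44671 and 60953 in Etv3-/-, against 39592 and 35540 in Etv3+/+. These did not overlap (log2 fold change 0.38, 95% interval -0.17 to 0.93, or 0.24 corrected). Traf2, Traf3 and Traf5, which restrain or relay signals of TNF receptor family members, averaged 4775 ± 165, 1539 ± 425 and 1333 ± 174 in Etv3-/- and 4444 ± 1798, 2360 ± 772 and 1690 ± 651 in Etv3+/+. Their values overlapped between genotypes. Log2 fold changes were 0.16 for Traf2, -0.62 for Traf3 and -0.30 for Traf5, which became 0.12, -0.57 and 0.16 after the correction, so that of Traf5 turned sign.

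Of the targets other than Tnfaip2, Icam1, the adhesion molecule bound by leukocyte integrins, had 45081, 41577 and 44152 normalized counts in Etv3-/-, against 28201 and 24486 in Etv3+/+. Both groups were tight and apart, with a log2 fold change of 0.73 (95% interval 0.27 to 1.19) that missed limma's threshold (adjusted p = 0.127). It was 0.55 after the GC and length correction, and DESeq2 called it (0.76, adjusted p = 0.00122). An antisense gene shares 11.7% of the Icam1 exon bases. Tnfrsf1b, the TNF receptor 2 gene, averaged 26486 ± 2676 in Etv3-/- and 21606 ± 227 in Etv3+/+, without overlap (log2 fold change 0.29, 95% interval -0.17 to 0.75, or 0.17 corrected). Tnfrsf9, the costimulatory receptor gene known as 4-1BB, had 119145, 67030 and 54607 in Etv3-/-, against 85205 and 115181 in Etv3+/+. Its Etv3-/- values spanned both Etv3+/+ values, with a coefficient of variation of 42.7% (log2 fold change -0.39, 95% interval -1.22 to 0.45).

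Other genes of the pathway were read from lists of receptors and ligands, of adaptors and of textbook targets. Of 18 tested receptors and ligands limma called 1 higher (5.56%, against 0.876% of all tested genes) and 0 lower, edgeR called 1 higher, and DESeq2 called 2 higher and 1 lower. At an unadjusted p under 0.05 limma found 5 of the 18 (27.8%, against 18.0%). The called gene was Tnfsf11, which encodes the TNF family ligand RANKL. It had 866, 915 and 586 normalized counts in Etv3-/-, against 147 and 80.4 in Etv3+/+ (log2 fold change 2.82, 95% interval 1.76 to 3.88, limma adjusted p = 0.0363, or 0.0551 to 0.157 with each library left out). The list's median log2 fold change was 0.62, against -0.06 over all tested genes, and 8 of its 18 genes were higher without overlap (44.4%, against 16.7%). In the same libraries the median log2 fold change was 1.30 for the macrophage and monocyte markers and 1.37 for the B cell markers, whose sums are given above, and their part in these values was not tested. The receptor of RANKL, Tnfrsf11a, had 6678, 6432 and 6929 in Etv3-/-, against 10464 and 14525 in Etv3+/+ (log2 fold change -0.88, 95% interval -1.38 to -0.39, limma adjusted p = 0.101), and was named after its values were seen.

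Among 38 adaptors and signal transducers limma called 0, with 9 at an unadjusted p under 0.05 (23.7%, against 18.0% of all tested genes). edgeR called 0, and DESeq2 called 3 higher (4.6% of all tested genes were) and 0 lower. Tax1bp1, an A20 cofactor, and Malt1, a paracaspase, had the highest mean normalized counts. Tax1bp1 averaged 25628 ± 4358 normalized counts in Etv3-/- and 37185 ± 2396 in Etv3+/+ (limma adjusted p = 0.257), and Malt1 25844 ± 7498 in Etv3-/- and 29906 ± 8901 in Etv3+/+. The list's median log2 fold change was 0.02.

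Of 34 textbook targets limma called 1 higher (2.94%, against 0.876% of all tested genes) and 2 lower (5.88%, against 0.319%), and edgeR gave the same counts. DESeq2 called 5 higher and 4 lower, against 4.6% and 3.86% of all tested genes. The list's median log2 fold change was -0.03. The chemokine gene Ccl2 had 1270, 2611 and 1773 normalized counts in Etv3-/-, against 197 and 328 in Etv3+/+ (log2 fold change 2.82, limma adjusted p = 0.0269, or 0.0425 to 0.118 with each library left out). The death receptor gene Fas had 1309, 1659 and 1289 in Etv3-/-, against 8515 and 11332 in Etv3+/+ (log2 fold change -2.80, limma adjusted p = 0.00765, or 0.0201 to 0.0718). Il12b, the shared chain gene of IL-12 and IL-23, had 1157, 2322 and 2256 in Etv3-/-, against 6471 and 7869 in Etv3+/+ (log2 fold change -1.97, limma adjusted p = 0.0419, or 0.0977 to 0.150). The called targets went in both directions.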

How the data were processed

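RNA-seq was measured on sorted dendritic cells, 3 Etv3-/- and 2 Etv3+/+ libraries, prepared by SMART-Seq from low input, per the labels' protocols. The authors deposited 1 table of normalized counts, taken as a signal, that is, as reads scaled library by library. Tools named in the submitters' processing notes are DESeq2 1.26.0, STAR 2.7.3a, Trimmomatic 0.36, Subread 1.6.3 and featureCounts, and the build is mm10. What each did, and with which annotation, strand setting or filter, is not given in the sources used here. Reads of a gene and of its antisense partner cannot be told apart unless counting used strand. Without molecular identifiers, PCR duplicates count as reads.

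Genes with at least 10 normalized counts in at least 2 libraries, 13813 in all, were compared between genotypes on log2(normalized count + 1) by limma 3.58.1 in R 4.3.3. The variance prior followed the mean (trend), tests were two-sided, and Benjamini-Hochberg adjustment ran over all of these genes with a threshold of 0.05. Fold changes given as log2 are on that scale and the others are ratios of group means. The values of a library were multiples of 1 step (100% of them came out whole to within 0.1), and the recovered reads were fitted with edgeR 4.0.16 and DESeq2 1.42.0 as alternatives, where edgeR called 114 genes higher and 44 lower. Other alternatives were pseudocounts of 0.5 and 5, other filters, TMM scaling, the replicate number as a block, a local regression on GC content and length (span 0.3, 98.5% of tested genes), that regression with the block, and each library left out. Positions, exon lengths and GC content came from GENCODE M21, matched by symbol, on the same assembly as mm10, and promoter windows from RefSeq (GRCm38.p6). The procedure was tested on simulated data that had the same spread for all genes and no GC trend. That test therefore does not cover the GC trends of these libraries.

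The members, lists and tests were chosen with earlier results of these data known. Values in every library were given for members past the threshold or at an unadjusted p under 0.05, all subunits, and the members of each role with the highest mean and the largest absolute log2 fold change. The other lists gave up to 4 called genes or, where none was called, the 2 with the highest mean. The ratios of member pairs were added after seeing the data.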

Additional observations from a re-analysis of the deposited data

How the results depend on the processing

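Under 15 alternatives, Ikbke and Tnfaip2 were called in 10 each and in none of the 5 that leave out a library, where limma called 0 members higher, with 4 at an unadjusted p under 0.05 in each. Those fits have fewer samples, and leaving out an Etv3+/+ library leaves 1, assumed to vary like the others. DESeq2 called 4 members higher (Icam1 and Tnfaip3 added) and 2 lower, with 636 and 533 genes in all. Over all tested genes, 121 were higher and 44 lower. A pseudocount of 5 gave 70 lower, the replicate block 118 lower, and the GC and length correction 234 higher and 109 lower. Leaving out each library gave 0 to 73 higher and 0 to 7 lower, with 0 without Etv3-/- replicate 1 (1885 genes at an unadjusted p under 0.05). The causes were not tested. In the main test the replicate block gives Etv3-/- replicate 3 a level of its own. The blocked log2 fold changes therefore equal those without that library (1.29 for Ikbke in both). Added to the main test, the replicate block changed no call among the members. Added to the GC and length correction, it left 2 members called higher in place of 3, with Tnfaip3 no longer called (0.96, adjusted p = 0.0655). Deviations from the group means correlated at -0.03 and 0.04 between libraries of the same number. The deviations of the 2 Etv3+/+ libraries are equal and opposite, so these are not separate checks and cannot decide whether libraries were paired. Number 3 occurs in Etv3-/- alone, and a shared number was not taken as a pair.

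Of the 33 members, 22 kept their direction throughout. Uncalled ones that changed sign (log2 fold change) were Relb (0.021) and Nfkbib (0.014) with edgeR, Nfkbib (0.0050) with TMM scaling, and Tnip1 (-0.0016) with the block. The GC and length correction gave Tnip1 -0.076, Cyld 0.19, Ikbkg 0.069 and Traf5 0.16, and with the block Tnip1 -0.023, Cyld 0.25, Ikbkg 0.047 and Chuk 0.034. Leaving out each library gave -0.55 to 0.11 for Nfkb2, -0.40 to 0.26 for Relb, -0.22 to 0.15 for Nfkbib, -0.23 to 0.61 for Nfkbiz, -0.25 to 0.016 for Bcl3, -0.15 to 0.23 for Tnip1, -0.26 to 0.59 for Traf2 and -0.70 to 0.11 for Traf5. The cause of these changes was not tested. The 3 and 2 libraries per genotype limit the precision, as the printed intervals show.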
